A study of Homo sapiens with 6 samples.

Results

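The SLC25 family, the carriers that move metabolites across the inner mitochondrial membrane, was followed after knockdown of PARP1 in HK-2, a long-used human cell line that derives from kidney proximal tubule. Members were the protein-coding rows of the deposited count table whose symbol begins with SLC25A, which gave 45 of 30403 rows. Of these 45 genes, 41 had enough reads to be tested, and SLC25A18, SLC25A31, SLC25A41 and SLC25A47 did not. The study used a transfected shRNA plasmid against PARP1 (group shPARP1, 3 libraries) or a control plasmid (group shCtrl, 3 libraries), with harvest at 48 h. All 6 libraries share the cell line, the lipid transfection and the culture medium, and the labels do not say whether replicates were separate cultures. For this reason a p-value here reflects only how far these libraries scatter, and that scatter can be technical. The share of cells that took up a plasmid was not analysed here, so each library is a mixture in which fewer expressing cells and less RNA per cell cannot be told apart.

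Carriers of this family share a fold of repeated membrane segments around a central substrate site, and most exchange one metabolite for another. They import ADP and phosphate for ATP synthesis, export ATP and citrate, run the malate-aspartate shuttle, and bring amino acids, nucleotides, iron, glutathione and cofactors into the matrix. The proximal tubule depends on oxidative metabolism, so these genes sit close to its main function. PARP1, the main nuclear poly(ADP-ribose) polymerase, consumes NAD+, and SLC25A51 is the carrier that brings NAD+ into mitochondria.

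The libraries held between 24429683 and 32809303 counts, and the 3 shPARP1 libraries were the deeper ones. At these depths 3 counts correspond to 0.0911 to 0.125 CPM, that is read counts scaled to a common library size by TMM. PARP1 itself read 262, 263 and 259 CPM in shCtrl and 26.9, 26.2 and 28.8 CPM in shPARP1 (log2 fold change -3.26, SE 0.0449, edgeR adjusted p = 1.73e-51). Of 14 proximal tubule markers 7 were tested and 6 were lower, with a summed level of 1176 to 1203 CPM in shCtrl and 805 to 825 CPM in shPARP1. The endocytic receptor genes of the brush border, LRP2 and CUBN, stayed below the test's filter in all libraries. Among other cell types, the 5 fibroblast markers summed to 19.0 to 22.4 CPM in shCtrl and 9.38 to 10.7 CPM in shPARP1, and the 4 leukocyte markers with a row to 14.0 to 15.5 and 10.9 to 11.4 CPM. Their part in the results below was not tested.

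More carriers rose than fell. Of the 41 tested members, 17 (41.5%) were higher in shPARP1, 8 (19.5%) were lower and 16 did not pass the edgeR quasi-likelihood test at an adjusted p under 0.05. Over all 16040 genes tested, 27.3% were called higher and 28.5% lower, and over the 13292 protein-coding genes 29.6% and 32.2%. The difference of the members' shares from these backgrounds was not tested. The median log2 fold change of the members was 0.11, beside -0.01 over all genes, and the values ran from -1.21 to 0.93. Changes were mostly small: SLC25A27 was the only tested member whose fitted change reached 2-fold. The CPM ranges of the groups lay apart, with shPARP1 higher, for 17 members (29.7% of all genes) and, with shPARP1 lower, for 9 (30.4% of all genes). With a correction for transcript length and GC content the members split into 17 higher and 5 lower, and with log2(FPKM + 1) values into 18 higher and 4 lower. Without shPARP1 replicate 2 the split was 16 and 4.

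**Figure D1:**
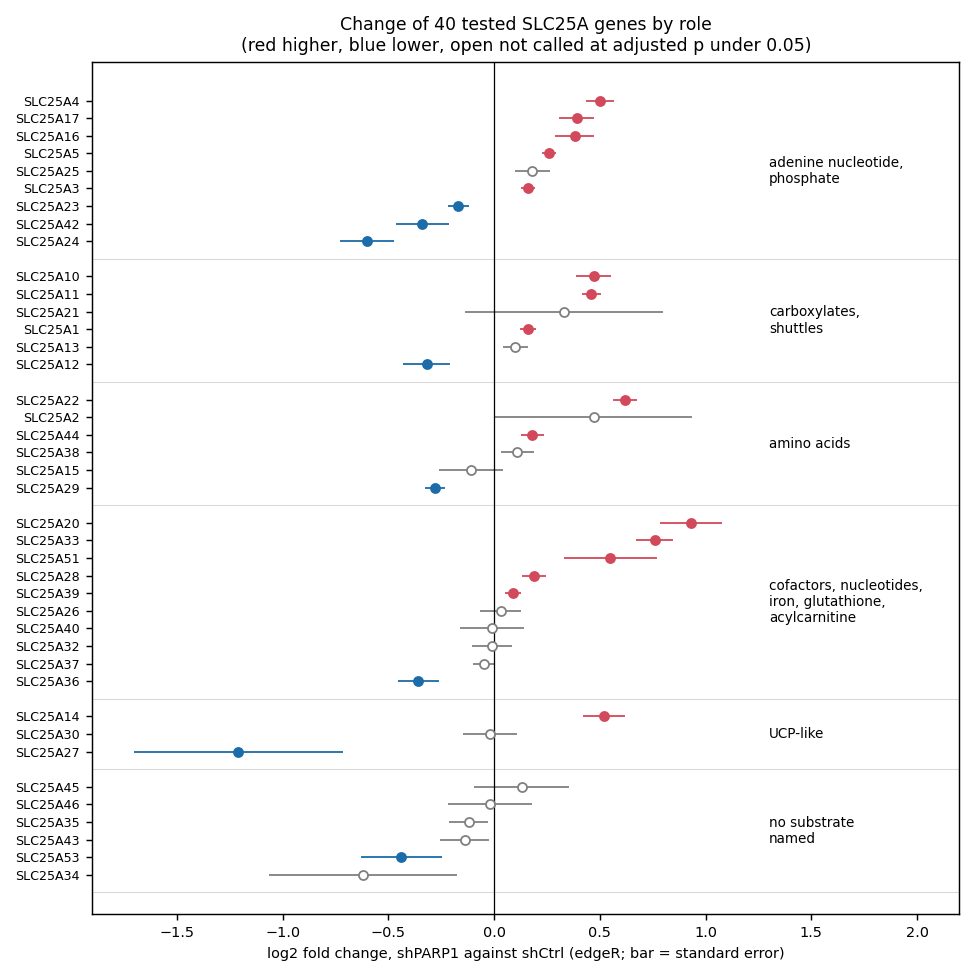
Log2 fold change (shPARP1 against shCtrl, x axis) of 40 of the 41 tested SLC25A genes with its standard error, ordered within roles on the y axis; red points were called higher, blue lower and open points did not pass the test. Called values run from -1.21 for SLC25A27 to 0.93 for SLC25A20, and each role except the genes with no named substrate holds both red and blue points.

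Summed over the 45 members, the deposited FPKM values (fragments per kilobase of transcript, scaled to library depth) came to 676, 696 and 683 in shCtrl and to 815, 810 and 798 in shPARP1. The family sum was thus higher in each shPARP1 library than in any shCtrl library, with a ratio of means of 1.18. On the TMM-scaled CPM scale, which gives long transcripts more weight and scales libraries differently, the ratio was 1.12 (1875 ± 3.74 against 2100 ± 17.8 CPM, SD, n = 3 per group). As a share of all counts, without scaling factors, it was 1.14. A few genes carry this sum: the 4 most abundant members held 70.6% ± 0.459 of the summed FPKM in shCtrl and 70.3% ± 0.179 in shPARP1 (SD, n = 3). SLC25A5 alone went from a mean of 208 FPKM in shCtrl to 257 in shPARP1. The sums were not corrected for transcript length and GC content.

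By FPKM in shCtrl, 4 members lay at 50 or above, 7 between 10 and 50, 21 between 1 and 10 and 13 below 1. The order began with SLC25A5 (208 ± 8.03 FPKM), an ADP/ATP carrier, followed by the glutathione carrier SLC25A39 (113 ± 3.83), the citrate carrier SLC25A1 (108 ± 2.56) and the phosphate carrier SLC25A3 (54.6 ± 1.58; SD, n = 3). In shCtrl the lowest SLC25A39 library (110.6 FPKM) lay just above the highest SLC25A1 library (110.09 FPKM), and in shPARP1 the ranges of these carriers overlapped. Of the 11 members at 10 FPKM or more, 7 were called higher and 2 lower, beside 27.3% and 28.5% of all genes tested at any level. The shares among genes of similar level were not analysed here. The calls of SLC25A28 and SLC25A23 ended with the length and GC correction, and that of SLC25A39 under other alternatives, as given below.

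**Figure D2:**
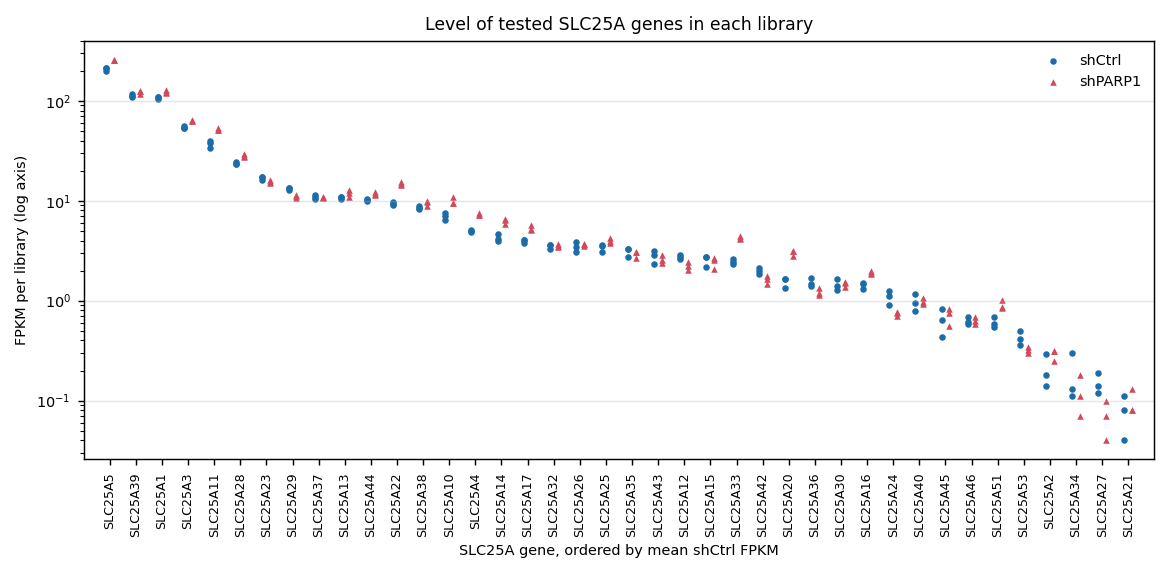
FPKM of 40 of the 41 tested SLC25A genes in each library (log y axis), ordered by mean shCtrl level; circles are the 3 shCtrl and triangles the 3 shPARP1 libraries. Levels span from 208 FPKM for SLC25A5 to 0.0767 FPKM for SLC25A21 in shCtrl, and the distance between groups is small beside that range.

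Among carriers of adenine nucleotides, phosphate and coenzyme A, 5 of 9 tested members rose and 3 fell. SLC25A5 (ENSG00000005022.5, chromosome X, 119468400 to 119471319 on GRCh38), the ADP/ATP carrier of proliferating cells, read 295, 308 and 313 CPM in shCtrl and 364, 367 and 367 CPM in shPARP1 (log2 fold change 0.26, SE 0.0334, adjusted p = 1.12e-09). With a correction for transcript length and GC content its value was 0.07 (adjusted p = 0.0228). Its heart and muscle relative SLC25A4 (ENSG00000151729.10, chromosome 4, 185143241 to 185150382) read 24.9, 25.9 and 25.7 CPM and then 35.7, 35.3 and 37.4 CPM, a change of 0.50 (SE 0.0654, adjusted p = 1.89e-09). Neither gene's groups overlapped. The FPKM ratio of SLC25A5 to SLC25A4 was 41.3, 41.5 and 42.3 in shCtrl and 35.6, 36.2 and 34.2 in shPARP1. SLC25A5 thus stood far above SLC25A4 per length in both groups, and the testis form SLC25A31 had no count in shCtrl and 2 counts in shPARP1 replicate 2. SLC25A6, the remaining ADP/ATP carrier, was not analysed here.

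SLC25A3 (chromosome 12, 98593591 to 98606379), which brings in the phosphate that ATP synthase uses, had the highest count of the family, with 428, 439 and 427 CPM in shCtrl and 479, 478 and 491 CPM in shPARP1 (0.16, SE 0.0319, adjusted p = 1.55e-05). All shPARP1 libraries lay above all shCtrl libraries, by a margin of 1.12-fold at the fitted mean, and the length and GC correction gave 0.25 (adjusted p = 3.16e-13). The peroxisomal carrier SLC25A17 (0.39) and SLC25A16 (0.38), which is linked to coenzyme A, rose as well. SLC25A42, a mitochondrial coenzyme A carrier, fell by 0.34 on the log2 scale (SE 0.126, adjusted p = 0.0165). Its call ended with the length and GC correction (-0.25, adjusted p = 0.0756), without shCtrl replicate 2 (-0.29, 0.0786) and without shPARP1 replicate 2 (-0.28, 0.106), and on log2(FPKM + 1) its value was -0.19 (limma adjusted p = 0.0387).

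The calcium-regulated carriers of ATP-magnesium and phosphate did not move as a block. SLC25A24 (ENSG00000085491.15, chromosome 1, 108134036 to 108200849) fell, from 8.44, 6.70 and 9.53 CPM to 5.13, 5.54 and 5.61 CPM (-0.60, SE 0.127, adjusted p = 5.24e-05), with all 3 shPARP1 libraries below the lowest control. Its value on log2(FPKM + 1) was -0.26 (limma adjusted p = 0.0169). SLC25A23 (ENSG00000125648.14, chromosome 19, 6436079 to 6465203), the most abundant of these carriers, went from 71.5, 69.2 and 65.6 CPM to 59.0, 64.0 and 60.2 CPM (-0.17, SE 0.0488, adjusted p = 0.00213). Its groups lay apart by a small gap, and the call ended with the length and GC correction (-0.08, adjusted p = 0.0952) and on log2(FPKM + 1) (-0.12, limma adjusted p = 0.0646). SLC25A25 read 18.9, 18.2 and 16.2 CPM against 18.9, 21.5 and 20.0 CPM and missed the threshold (0.18, SE 0.0821, adjusted p = 0.0569). It passed with the length and GC correction (0.26, adjusted p = 0.00385), with RLE scaling (0.0493), with no scaling factors (0.0264), with the filter of 5 CPM (0.0491), with limma-voom (0.0483) and on log2(FPKM + 1) (0.0496). It also passed without shCtrl replicate 1 (0.22, 0.0261) or 2 (0.21, 0.0348) and without shPARP1 replicate 1 (0.23, 0.0318). SLC25A41, a close relative, had at most 3 counts in any library.

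Carriers of carboxylates rose for 3 of 6 members and fell for 1. SLC25A11 (ENSG00000108528.13, chromosome 17, 4937130 to 4940251), the oxoglutarate-malate exchanger of the malate-aspartate shuttle, had the smallest p-value of this group: 83.7, 84.7 and 73.3 CPM in shCtrl and 114, 109 and 107 CPM in shPARP1 (0.46, SE 0.0465, adjusted p = 2.12e-12). Its groups were far apart although shCtrl replicate 3 was low within its group. The dicarboxylate carrier SLC25A10 rose by nearly the same amount (0.47, SE 0.0822), and the FPKM ratio of SLC25A11 to SLC25A10 had overlapping ranges, with means of 5.32 ± 0.565 for shCtrl and 5.26 ± 0.245 for shPARP1 (SD, n = 3). SLC25A1 (ENSG00000100075.9, chromosome 22, 19175575 to 19178830), which exports citrate for lipid synthesis, rose slightly, from 218, 223 and 223 CPM to 255, 245 and 240 CPM (0.16, SE 0.0356, adjusted p = 0.000142). Of the aspartate-glutamate carriers, SLC25A12 fell by 0.32 on the log2 scale (SE 0.110, adjusted p = 0.0103), a call that ended without shPARP1 replicate 2 (-0.25, 0.0866), and its value on log2(FPKM + 1) was -0.20 (limma adjusted p = 0.0273). SLC25A13, the more abundant form, had a value of 0.10 (adjusted p = 0.166) and passed without shPARP1 replicate 1 (0.16, 0.0427). The oxodicarboxylate carrier SLC25A21 (0.33, SE 0.469) had too few reads for a close estimate. Its antisense RNA SLC25A21-AS1, annotated over 15.8% of its exon length, had 10, 11 and 6 counts in shCtrl and 22, 28 and 25 in shPARP1.

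Of 6 tested amino acid carriers, 2 rose and 1 fell. SLC25A22 (ENSG00000177542.10, chromosome 11, 790475 to 798333), which imports glutamate, read 35.4, 36.2 and 34.6 CPM in shCtrl and 56.8, 52.4 and 54.0 CPM in shPARP1 (0.62, SE 0.0558, adjusted p = 1.48e-14), the smallest p-value in the family. No shPARP1 library came near the control range. SLC25A18, the other glutamate carrier, stayed at 5 counts or fewer in every library. SLC25A44, a branched-chain amino acid carrier, rose by a small amount (0.18, SE 0.0548, adjusted p = 0.00467), which was 0.30 with the length and GC correction (adjusted p = 3.28e-07). SLC25A29 (ENSG00000197119.12, chromosome 14, 100291111 to 100306547), a basic amino acid carrier, fell, from 86.1, 80.6 and 86.4 CPM to 71.9, 69.9 and 65.8 CPM (-0.28, SE 0.0464, adjusted p = 4.23e-07), without overlap. Its value was -0.14 (adjusted p = 0.00196) with the length and GC correction. The glycine carrier SLC25A38 (0.11, SE 0.0760) and the ornithine carriers SLC25A15 (-0.11, SE 0.151) and SLC25A2 (0.47, SE 0.467) did not pass.

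The broadest group, with carriers of cofactors, nucleotides, iron, glutathione and acylcarnitine, held 6 rises and 1 fall among 11. Its largest value, and the largest rise of the family, was that of SLC25A20 (ENSG00000178537.9, chromosome 3, 48856931 to 48898993), the carnitine-acylcarnitine carrier through which long-chain fatty acids reach the matrix. It read 3.63, 2.89 and 3.57 CPM in shCtrl and 6.71, 6.55 and 5.91 CPM in shPARP1 (0.93, SE 0.146, adjusted p = 2.07e-07), so that the groups lay far apart. The NAD+ carrier SLC25A51 (ENSG00000122696.12, chromosome 9, 37879400 to 37904353) read 1.55, 1.39 and 1.77 CPM and then 2.58, 2.17 and 2.15 CPM (0.55, SE 0.219, adjusted p = 0.0276). Its groups did not overlap, but the estimate rests on 36 to 85 counts per library. The call ended with DESeq2 (0.56, adjusted p = 0.0598) and with no filter on low counts (0.56, 0.0539). It also ended without shCtrl replicate 1 (0.54, 0.0544) or 2 (0.48, 0.0827) and without shPARP1 replicate 1 (0.46, 0.133). On log2(FPKM + 1) the value was 0.25 (limma adjusted p = 0.0103).

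The mitoferrins, which bring iron into the matrix, differed in their calls. SLC25A28 (ENSG00000155287.10, chromosome 10, 99610522 to 99620609) read 39.9, 40.4 and 39.5 CPM in shCtrl and 48.1, 45.0 and 43.9 CPM in shPARP1 (0.19, SE 0.0567, adjusted p = 0.00277), without overlap, and its call ended with the length and GC correction (0.05, adjusted p = 0.472). SLC25A37 read -0.05 (SE 0.0489, adjusted p = 0.358), and 0.08 with that correction. SLC25A39 (ENSG00000013306.15, chromosome 17, 44319625 to 44324870), a glutathione carrier, read 225, 206 and 211 CPM and then 232, 233 and 217 CPM (0.09, SE 0.0377, adjusted p = 0.0413), and the groups overlapped. It lost its call with DESeq2 (adjusted p = 0.0658), edgeR's likelihood-ratio test (0.0635) and the filter of 5 CPM (0.0525), and without shCtrl replicate 2 (0.131) or 3 (0.137) or shPARP1 replicate 1 (0.115) or 2 (0.182). The related SLC25A40 (-0.01, SE 0.153), the folate and FAD carrier SLC25A32 (-0.01, SE 0.0938) and the S-adenosylmethionine carrier SLC25A26 (0.03, SE 0.0957) did not pass.

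The pyrimidine nucleotide carriers SLC25A33 and SLC25A36, which supply the matrix with nucleotides for mitochondrial DNA and RNA, moved in opposite directions. SLC25A33 (ENSG00000171612.6, chromosome 1, 9539482 to 9585179) read 10.9, 10.3 and 11.6 CPM in shCtrl and 19.4, 17.9 and 18.4 CPM in shPARP1 (0.76, SE 0.0873, adjusted p = 4.27e-11). SLC25A36 (ENSG00000114120.11, chromosome 3, 140941830 to 140980961) read 13.2, 12.1 and 14.8 CPM and then 9.62, 10.2 and 11.4 CPM (-0.36, SE 0.0972, adjusted p = 0.00130). Neither gene's groups overlapped. On log2(FPKM + 1) values SLC25A36 missed the threshold (-0.18, limma adjusted p = 0.0589). Per length, SLC25A33 was already the more abundant of these carriers in shCtrl: its FPKM ratio to SLC25A36 was 1.64, 1.69 and 1.54 there and 3.97, 3.47 and 3.19 in shPARP1.

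Promoter windows of both genes, from 250 bases before to 50 bases after the annotated start (RefSeq, GRCh38.p14, plus strand for both), are shown because both genes carry pyrimidine nucleotides and changed in opposite directions. SLC25A11 (minus strand) is added as the most abundant carrier with a log2 fold change above 0.4. Capitals mark the letters TGACGTCA, the cyclic AMP response element (CRE), in the first pair, and the letters of a nuclear respiratory factor word (GCGC, any base, then TGCGC) in SLC25A11.
SLC25A33, chr1:9539215-9539514: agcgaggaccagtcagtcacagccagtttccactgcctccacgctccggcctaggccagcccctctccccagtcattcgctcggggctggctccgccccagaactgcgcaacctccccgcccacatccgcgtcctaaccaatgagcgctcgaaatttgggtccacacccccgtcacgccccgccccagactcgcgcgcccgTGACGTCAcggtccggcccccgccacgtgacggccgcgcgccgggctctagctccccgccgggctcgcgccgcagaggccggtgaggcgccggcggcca
SLC25A36, chr3:140941586-140941885: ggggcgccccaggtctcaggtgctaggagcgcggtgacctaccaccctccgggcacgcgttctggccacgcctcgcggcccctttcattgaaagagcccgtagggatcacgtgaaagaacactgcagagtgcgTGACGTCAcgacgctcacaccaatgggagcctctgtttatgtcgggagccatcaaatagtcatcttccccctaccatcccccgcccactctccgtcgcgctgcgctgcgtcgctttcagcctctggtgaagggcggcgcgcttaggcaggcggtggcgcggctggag
SLC25A11, chr17:4939997-4940296: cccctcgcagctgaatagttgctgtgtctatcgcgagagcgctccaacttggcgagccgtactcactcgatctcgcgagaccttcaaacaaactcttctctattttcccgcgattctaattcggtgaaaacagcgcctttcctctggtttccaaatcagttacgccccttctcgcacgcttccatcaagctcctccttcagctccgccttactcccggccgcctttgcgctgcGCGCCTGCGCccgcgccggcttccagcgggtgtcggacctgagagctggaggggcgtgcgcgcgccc

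In SLC25A33 the response element began 49 bases before the start, with an E-box (CACGTG) at 26 bases and a CCAAT box at 113 bases. In SLC25A36 it began 117 bases before the start, with the E-box at 143 bases and the CCAAT box at 98 bases. None of these words overlapped within either window. Both promoters thus hold these 3 words at different distances, and both also hold GGGCGG, the word of Sp1. They are the only pair of the 37 members with a promoter entry used here that hold CRE and E-box together, beside 0.238% of all 27305 genes in the table. Members on chromosome 8, SLC25A32 and SLC25A37, were left out of the search. The shares over all genes, here and in the next paragraph, kept that chromosome and had no filter for expression. The words and the promoters shown were chosen after values were seen, so these shares are a description and no test. SLC25A2, SLC25A16, SLC25A30, SLC25A32, SLC25A35, SLC25A37 and SLC25A41 were among the members with no entry used here.

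Words for 8 factors were searched on both strands in these windows. The NRF1 word was present for 4 of the 37 members (6.98% of all genes), namely SLC25A3, SLC25A11, SLC25A31 and SLC25A51, of which 3 were called higher. CCGGAAGT, an ETS word, was found in 4 (4.95%), CRE in 3 (2.25%) and the E-box in 9 (8.77%). The CCAAT word was held by 20 members (39.7%), GGGCGG of Sp1 by 27 (48.3%), the YY1 word (AA, any base, then ATGGCGGC) by SLC25A26 only (1.76%) and TCAAGGTCA of the oestrogen-related receptors by none (0.432%). GGGCGG stood in 13 of the 15 higher and 6 of the 8 lower members with an entry, and CCAAT in 9 and 6. These matches describe letters in the windows and not binding.

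The uncoupling-protein-like carriers, which are named for their likeness to UCP1 of brown fat, held 1 rise and 1 fall. SLC25A14 (ENSG00000102078.15, chromosome X, 130339888 to 130373361) read 9.86, 8.48 and 8.26 CPM in shCtrl and 13.3, 11.8 and 12.9 CPM in shPARP1 (0.52, SE 0.0996, adjusted p = 1.17e-05), without overlap. SLC25A30, described as a kidney mitochondrial carrier, had a value of -0.02 (SE 0.128). SLC25A27 (ENSG00000153291.15, chromosome 6, 46652915 to 46678193) had 16, 11 and 13 counts in shCtrl and 4, 7 and 10 in shPARP1, that is 0.668, 0.424 and 0.5 CPM against 0.121, 0.227 and 0.336 CPM. Its fitted change of -1.21 (SE 0.495, adjusted p = 0.0327) was the deepest fall of the family and had the largest standard error of the called values. The call ended with DESeq2 (-1.22, adjusted p = 0.0809), with no filter on low counts (-1.21, 0.0792) and on log2(FPKM + 1), where the value was -0.10 (limma adjusted p = 0.0513), beside -0.56 on log2(FPKM + 0.1) (0.0359). It also ended without shCtrl replicate 1 (-1.02, 0.132) or 3 (-1.25, 0.0543) and without shPARP1 replicate 1 (-0.90, 0.186) or 2 (-1.22, 0.0822). UCP2, an uncoupling protein whose symbol lies outside the family's naming, fell slightly, from 250 ± 3.03 to 234 ± 5.35 CPM (SD, n = 3; -0.09, SE 0.0351, edgeR adjusted p = 0.0227).

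Among 6 tested carriers with no substrate named here, SLC25A53 fell (-0.44, SE 0.192, adjusted p = 0.0474) and none rose. That call lay at the threshold and ended without shCtrl replicate 2 (-0.46, 0.0560) or 3 (-0.30, 0.241) and without shPARP1 replicate 1 (-0.48, 0.0642), 2 (-0.44, 0.0906) or 3 (-0.39, 0.135). It was also lost with DESeq2 (-0.43, 0.0988), the length and GC correction (-0.42, 0.0528), RLE scaling (0.05), no scaling factors (0.0665), limma-voom (0.0562), no filter on low counts (0.0825), log2(FPKM + 1) (-0.11, 0.115) and log2(FPKM + 0.1) (-0.31, 0.141). SLC25A46, an outer membrane protein of mitochondrial dynamics, read -0.02 (SE 0.198), SLC25A35 -0.12, SLC25A43 -0.14, SLC25A45 0.13 and SLC25A34 -0.62 (SE 0.445), and these did not pass. SLC25A47, a liver carrier, had 1 count over all libraries.

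Related carriers with the same or a similar substrate were also set against each other within each library, since a ratio of FPKM values from the same library does not depend on how libraries are scaled. Of 10 such ratios, 8 had groups that did not overlap. Such separation was common: the CPM ranges of single genes lay apart for 29.7% (higher) and 30.4% (lower) of all genes tested. The share among ratios of other genes was not analysed here. SLC25A25 recurs among the ratios, and they were chosen after values were seen. SLC25A33 to SLC25A36 moved most, by 1.12 on the log2 scale, followed by SLC25A25 to SLC25A24 (0.77), SLC25A16 to SLC25A42 (0.72), SLC25A14 to SLC25A30 (0.53), SLC25A13 to SLC25A12 (0.43), SLC25A25 to SLC25A23 (0.35) and SLC25A28 to SLC25A37 (0.25), while SLC25A5 to SLC25A4 went down (-0.24). Each of these 8 reached an exact two-sided permutation p of 0.1, the smallest that 3 against 3 libraries allow, and 0.125 after adjustment over the 10 ratios. This test could therefore not bring a ratio under 0.05. A ratio still depends on transcript length and GC content: with that correction, taken as the difference of the fitted changes, SLC25A28 to SLC25A37 was -0.03 and SLC25A5 to SLC25A4 was -0.48. In FPKM SLC25A16 changed places with SLC25A42: their ratio was 0.670, 0.704 and 0.790 in shCtrl and 1.15, 1.35 and 1.09 in shPARP1. In CPM SLC25A16 was the higher in both groups, with means of 10.8 against 7.14 in shCtrl and 14.0 against 5.62 in shPARP1. The change of order thus depends on the gene lengths behind the FPKM values, which are not given. The ratios of SLC25A39 to SLC25A40 and of SLC25A11 to SLC25A10 overlapped between groups.

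**Figure D3:**
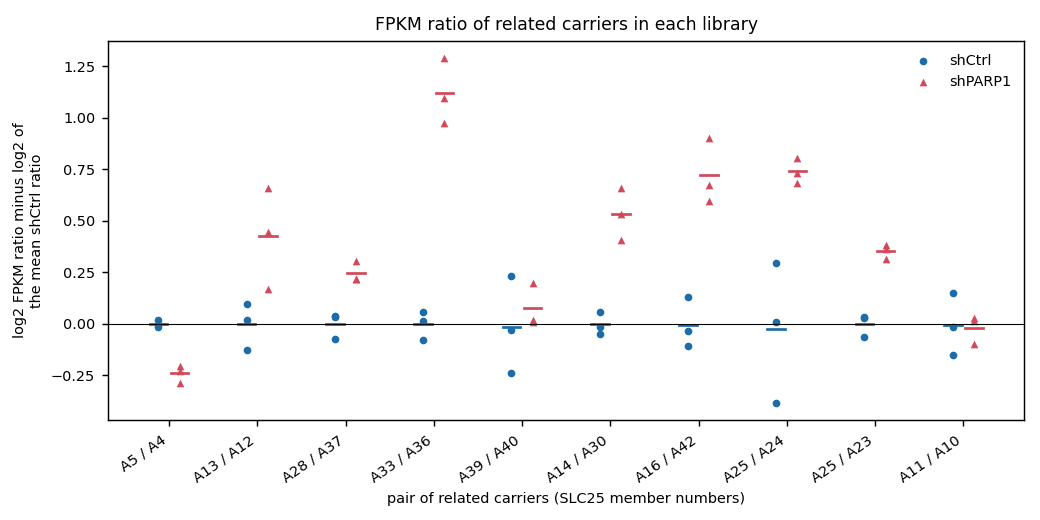
Log2 FPKM ratio of 10 pairs of related carriers in each library (y axis), less the log2 of the mean shCtrl ratio; circles are shCtrl, triangles shPARP1, and short lines group means of 3 libraries. The triangles of SLC25A33 to SLC25A36 lie 1.12 above the circles in the mean, those of SLC25A5 to SLC25A4 lie below them, those of SLC25A28 to SLC25A37 lie above them without the length and GC correction (0.25, and -0.03 with it), and the ratios of SLC25A39 to SLC25A40 and SLC25A11 to SLC25A10 overlap.

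The called members also differed in structure and level, which is given as a description. The 17 higher members had a median merged exon length of 3397 bases and a median GC content of 50.9%, and the 8 lower members 5951 bases and 43.2%. Their median shCtrl levels were 6.95 and 1.75 FPKM. All tested genes had a median exon length of 4491 bases and GC content of 49.1%. The part of length and GC content in single calls is given above where the correction changed them.

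Reads of SLC25A pseudogenes were few, whereas the antisense RNA SLC25A25-AS1 had 69 to 99 counts per library. The 8 pseudogene rows with an SLC25A symbol held 38 counts over all 6 libraries, with at most 7 in any library. GENCODE 29 lists 9 pseudogenes named for SLC25A5 and 6 for SLC25A6. How reads of SLC25A5 and its copies were assigned is not given in the sources used here, so its count is uncertain. Exons overlap a gene on the opposite strand for SLC25A35 (33.2% of its exon length, with RANGRF), SLC25A5 (15.1%, with SLC25A5-AS1) and SLC25A24 (13.7%), among others. The same holds for SLC25A26 (15.5%, with LRIG1), SLC25A25 (13.5%, with SLC25A25-AS1) and SLC25A22 (10.9%, with PANO1). Reads of both genes may have been mixed there, because the strand setting of the counting is not given either.

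Most genes of the machinery that imports carriers into the inner membrane rose. Of 12 tested genes, 9 rose and 1 fell (median log2 fold change 0.59), beside 27.3% called higher and 28.5% lower over all genes tested. The difference from these shares was not tested. TOMM22, an import receptor subunit, went from 23.3 ± 1.14 to 89.9 ± 1.81 CPM (1.95, SE 0.0535, adjusted p = 7.73e-37). TIMM8B, a small chaperone of the intermembrane space, went from 18.2 ± 1.40 to 42.5 ± 0.636 CPM (1.23), and the pore TOMM40 from 234 ± 12.5 to 371 ± 12.2 CPM (0.66; SD, n = 3 each). TIMM22, the channel that inserts carriers, rose by 0.52 on the log2 scale, and the receptor TOMM20 fell by 0.28. All 3 outer membrane channels rose, VDAC1 by 0.13, VDAC2 by 0.38 and VDAC3 by 0.51. The atypical carrier-fold proteins MTCH1 (0.15) and MTCH2 (0.50), which sit in the outer membrane, rose too, and UCP1 was not analysed here.

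**Figure D4:**
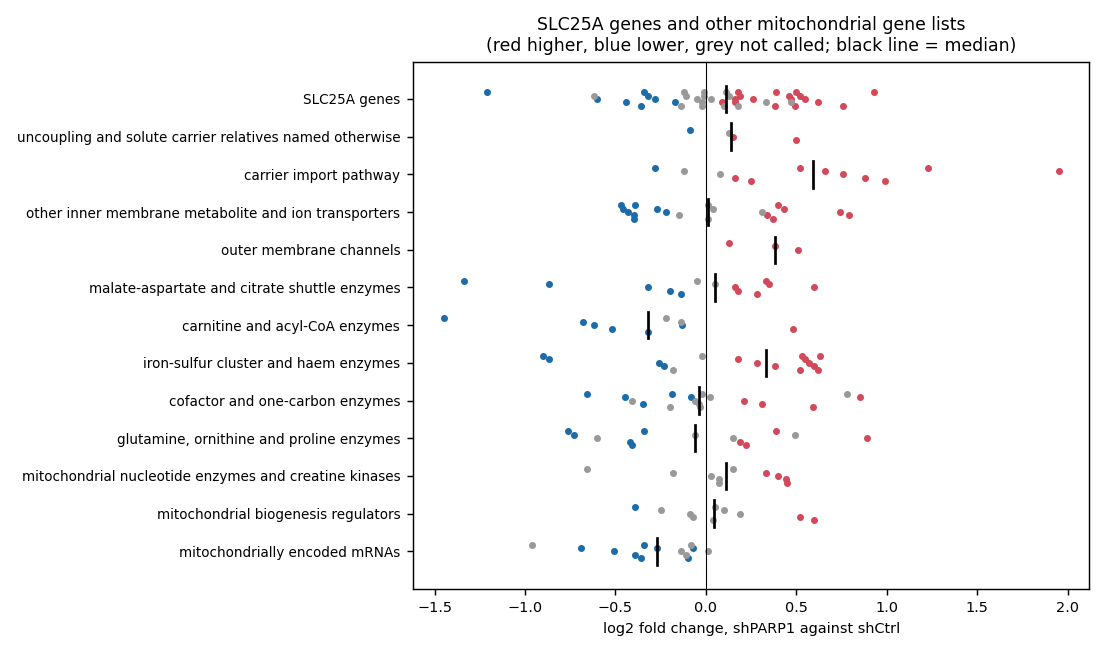
Log2 fold change (x axis) of the tested SLC25A genes and of 12 lists of other mitochondrial genes (y axis); each point is 1 gene, red called higher, blue lower, grey not called, and the black line is the list's median. The median is 0.11 for SLC25A genes, 0.59 for the carrier import pathway and -0.27 for mitochondrially encoded mRNAs.

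Enzymes that work on the carriers' substrates moved in both directions. So did all genes tested, with 27.3% called higher and 28.5% lower. The list counts here and in the paragraphs that follow were not tested against these shares. Of 13 tested enzymes of the malate-aspartate and citrate shuttles, 6 rose and 5 fell (median 0.05). Citrate synthase, CS, rose (0.35), whereas ACLY, which splits exported citrate in the cytosol, fell from 387 ± 4.61 to 153 ± 7.0 CPM (-1.34, SE 0.0362, edgeR adjusted p = 3.62e-37; SD, n = 3), opposite to the small rise of SLC25A1, and IDH2 fell by 0.32. Of the malate-aspartate shuttle enzymes, MDH1 (0.33), GOT1 (0.28) and GOT2 (0.16) rose, and MDH2 had a value of 0.05 (adjusted p = 0.234). Carnitine and acyl-CoA enzymes fell for 6 of 9 and rose for 1 (median -0.32), against the direction of SLC25A20: the carnitine palmitoyltransferase CPT1A fell by 0.32, carnitine acetyltransferase CRAT by 0.62 and the acyl-CoA synthetase ACSL1 by 1.45 on the log2 scale. Among glutamine, ornithine and proline enzymes, 4 of 13 rose and 5 fell (median -0.06). Glutamate dehydrogenase GLUD1 (-0.41) and the proline synthesis enzyme ALDH18A1 (-0.34) fell, and ornithine decarboxylase ODC1 (0.89) rose.

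Genes of iron-sulfur clusters and haem, which use imported iron, rose for 10 of 16 and fell for 4 (median 0.33), with a rise of the glutaredoxin GLRX5 (0.55) and falls of the haem enzymes CPOX (-0.90) and ALAD (-0.87). Cofactor and one-carbon enzymes rose for 4 of 17 and fell for 5 (median -0.04). FLAD1, which makes FAD, rose (0.59), and the S-adenosylmethionine synthetase MAT2A (-0.45) fell. Mitochondrial nucleotide enzymes and creatine kinases rose for 4 of 10, and none fell (median 0.11), the adenylate kinase AK4 (0.44) and the nucleoside diphosphate kinase NME4 (0.33) among them. Other transporters of the inner membrane rose for 6 of 19 and fell for 8 (median 0.01), with a rise of the calcium uniporter subunit SMDT1 (0.79) and falls of the sodium-calcium exchanger SLC8B1 (-0.47) and ABCB6 (-0.46).

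Of 10 regulators of mitochondrial biogenesis, 2 rose and 1 fell (median 0.04). The nuclear receptor ESRRA went from 31.4 ± 3.80 to 45.0 ± 1.48 CPM (0.52, SE 0.0650; SD, n = 3) and GABPB1 rose by 0.60, while the mitochondrial transcription factor TFB2M fell by 0.39 on the log2 scale. PPARGC1A, the coactivator PGC-1 alpha, had a value of -0.07, NRF1 of 0.10 and TFAM of -0.09, and these did not pass. Mitochondrially encoded mRNAs fell for 8 of 13, and none rose (median -0.27), among them MT-CO1 (-0.34), MT-CO2 (-0.36) and MT-ND1 (-0.27).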

How the data were processed

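Polyadenylated RNA of 6 HK-2 libraries was sequenced in paired-end mode after a stranded library preparation, per the labels' protocols. The authors deposited unnormalized whole-number counts for each gene and a matching table of FPKM values. The submitters' processing notes name GRCh38 as the build, and bcl2fastq, TopHat2 and edgeR with no version. What counted the reads, with which strand setting, annotation and gene lengths, is not given in the sources used here.

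From the deposited counts, edgeR 4.0.16 (R 4.3.3) was run with filterByExpr (16040 genes kept), TMM scaling, and the robust quasi-likelihood F test of shPARP1 against shCtrl on the whole table, with Benjamini-Hochberg adjustment over all genes and a call at an adjusted p under 0.05. Standard errors were derived from the F statistic, and values in parentheses after a gene are log2 fold changes. Libraries of a group differed by more than sampling noise (chi-square of 2.54 to 4.54 for each degree of freedom). Such scatter can be technical, so it does not show that the libraries came from separate cultures. Each library was nevertheless treated as a replicate in the tests. Alternatives used limma 3.58.1, DESeq2 1.42.0, other scalings and filters, limma on log2(FPKM + 1) and log2(FPKM + 0.1), a spline correction for exon length and GC content (GENCODE 29, matched to 99.2% of tested genes and all tested members), a block for the replicate number, and fits with 1 library omitted. The model was also run on simulated counts, drawn from its own kind of distribution with far fewer changed genes than were called here. That run checks the code and gives no evidence for the calls.

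Per-library values are given for called members with an absolute log2 fold change of at least 0.5 and for the 8 with the highest FPKM in shCtrl. Those of SLC25A36 and SLC25A25 are given as well, outside this rule. From each list of other genes up to 3 called genes with the smallest p-values are named. Other list genes named here (TIMM22, TOMM20, MDH1, MDH2, GOT1, GOT2, PPARGC1A, NRF1 and TFAM) were chosen after their values were seen, as were the ratios of related carriers, the promoter words and the promoters shown. Members and lists were chosen with earlier results of these data known. Promoter windows came from RefSeq (GRCh38.p14). SLC25A6, SLC25A48 and SLC25A52 were not analysed here. Values of 1 called member and of some other list genes are not reported here, and the member is not drawn gene by gene, but the counts and medians include them. Gene coordinates are those of GENCODE 29 on GRCh38.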

Additional observations from a re-analysis of the deposited data

How the results depend on the processing

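The number of members called higher was 17 and lay between 15 and 18 under every alternative run, and between 16 and 17 when a library was left out. The number called lower was 8. It was 4 on log2(FPKM + 1), 5 on log2(FPKM + 0.1), 5 with the length and GC offset, 5 with that offset and the replicate block together, and 4 to 7 when a library was left out, the 4 being without shPARP1 replicate 2. The cause of these differences was not tested. The members' median log2 fold change of 0.11 was 0.15 with the filter of 5 CPM in 3 libraries, which tests fewer members, and 0.09 to 0.14 when a library was left out. It was 0.15 on log2(FPKM + 0.1), where the median of all genes was 0.04. With the length and GC offset it was 0.08, with or without the replicate block. The family's summed level differed by 0.24 (log2) in FPKM and 0.16 in TMM-scaled CPM. With the length and GC offset, an alternative for the ratios that was chosen after seeing the data, SLC25A28 to SLC25A37 turned from 0.25 to -0.03. Over all genes, 8937 were called, and 7492 to 9060 under the alternatives, and no scaling moved the median of all genes by over 0.1. With the replicate block, 18 members were called higher, 7 lower and 9060 genes in all; SLC25A25 passed (0.18, adjusted p = 0.0426) and SLC25A53 did not (-0.43, 0.054). The labels give only a number, and the deviations of same-numbered libraries had correlations near zero (0.0358, -0.00421 and 0.0362). By these small values shCtrl replicates 1 and 3 were closest to the same-numbered shPARP1 library, and shCtrl replicate 2 to shPARP1 replicate 1 (0.0255). No member named with per-library values changed direction under any alternative run. Depth limits the members below 1 CPM, SLC25A2, SLC25A21, SLC25A27 and SLC25A34, whose standard errors were 0.445 to 0.495.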
